A study of Mus musculus with 6 samples.

Results

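Microglia, the resident macrophages of brain tissue, and the macrophages that line its vessels and membranes were followed through 30 genes, chosen by name from a list of microglia and brain macrophage genes. All 30 were found among the 55487 genes of the count tables and all 30 passed the filter on low counts, as did 18237 genes in all. They were read in cerebella of 14-day-old male mice. The 3 knockouts (KO) are homozygous for the Galnt17tm1.1(KOMP)Vlcg allele of Galnt17, formerly Wbscr17, a gene of the enzyme family that starts mucin-type O-glycosylation. The 3 wild types (WT) are B6C3 animals, hybrids of C57BL/6J and C3H/He. Homozygotes were not born alive on C57BL/6, so the KO line was bred to B6C3 hybrids to obtain live animals, per the labels. The allele is carried in every cell of the KO animals, and each library holds the whole cerebellum of 1 animal, with no cells sorted. The labels do not say that KO and WT animals were littermates, so genotype and breeding history cannot be told apart.

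Microglia enter the brain from the embryonic yolk sac and renew themselves there, kept alive by signalling through the growth factor receptor CSF1R. In the young cerebellum they clear dying cells and prune synapses. In undisturbed tissue they carry a characteristic set of surface receptors, among them P2RY12, which senses nucleotides, and CX3CR1, which binds a neuronal chemokine, and these so-called homeostatic genes are known to fall when microglia become activated. The other members are genes of myeloid identity, genes of phagocytosis, lysosomes and Fc or pattern receptors, and genes of perivascular macrophages and monocytes.

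The promoters of the members were searched for the letters of a myeloid factor. PU.1, encoded by the member Spi1, is a transcription factor that myeloid cells depend on and that binds GAGGAAGT. RefSeq promoter windows (GRCm38.p6, 250 bases before to 50 after a start site) were at hand for 23 of the 30 members, and 3 of these 23, and so a minority, held the letters GAGGAAGT on either strand, beside 997 of 27025 genes with such a window (3.69%). The longer pattern GGAANNGAA, where PU.1 and an IRF factor such as IRF8 can bind side by side, was found in 2 of 23 (8.70%), Ctss and Cd68, beside 9.42% of all. The 3 matches to the first pattern are shown because each lies close to the start site, beginning 2 bases before it in Ctss and 6 and 5 bases after it in Cd53 and Apbb1ip, on the antisense strand. Each line runs 5′ to 3′ along the gene from 60 bases before the start site through the 20 bases that begin there, at chr3:95526726-95526805 (plus strand) for Ctss, chr3:106790130-106790209 (minus strand) for Cd53 and chr2:22774267-22774346 (plus strand) for Apbb1ip, and the capitals mark the match. In Ctss the second pattern overlaps the first.
Ctss: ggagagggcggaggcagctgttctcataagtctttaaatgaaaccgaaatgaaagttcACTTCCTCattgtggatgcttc
Cd53: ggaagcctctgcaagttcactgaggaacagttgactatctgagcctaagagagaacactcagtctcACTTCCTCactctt
Apbb1ip: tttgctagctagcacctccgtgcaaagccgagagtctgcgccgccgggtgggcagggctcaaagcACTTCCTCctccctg
A match of letters is a description of the window, and no binding was measured here.

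The libraries held 17111611 to 29840046 counts in genes, and the members took 3607 to 6676 of them, 0.0211% to 0.0230% of each library. Levels are given as CPM, counts scaled to library size with the TMM method. Galnt17 was at 2.41, 3.44 and 3.13 CPM in KO replicates 1, 2 and 3 and at 46.3, 42.8 and 46.8 CPM in WT replicates 1, 2 and 3, as the labels give the groups. Granule cell markers of the cerebellum were abundant throughout, with Cbln1 at 852 to 995 CPM. Over all genes, 302 of 18237 (1.66%) passed edgeR's quasi-likelihood test at a Benjamini-Hochberg adjusted p below 0.05, 143 higher (0.784%) and 159 lower (0.872%) in KO. That count depended on single libraries and ranged from 81 without KO replicate 2 to 1921 without WT replicate 1, whose values followed the GC content of genes most (Spearman correlation across genes -0.22, against -0.07 to 0.14 in the others). Read mapping differed with genotype: unmapped reads made up 13.8% to 17.2% of the KO and 6.52% to 10.03% of the WT libraries, and reads mapping to several places 3.72% to 3.90% and 4.09% to 4.29%. Their part in the results was not tested.

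None of the microglia and macrophage genes passed the test between KO and WT. The count was 0 of 30 in edgeR, DESeq2 and limma-voom, beside 1.66%, 3.08% and 1.71% of all genes. At an unadjusted p under 0.05 there were 1, 0 and 1 members, beside 17.6% of all genes in edgeR. That share also stands beside the unadjusted edgeR counts of the other lists below. The count of members that passed stayed at 0 without any 1 of the 6 libraries. This includes the setting without WT replicate 1, in which 10.5% of all genes passed. The median log2 fold change (KO over WT) was 0.05 against -0.01 over all genes tested. Among the members 19 had a positive and 11 a negative value. Without regard to sign, the median log2 fold change was 0.15 against 0.12 over all genes tested. The 95% interval of the change lay within 1.5-fold in either direction for 20 of 30 members, beside 66.5% of all genes tested. It lay within 2-fold for 28 members, all but Slc2a5 and Cd14. A p that misses the threshold does not show equal levels, and these intervals give the sizes of change the data still allow. Fewer cells of a type and less RNA per cell cannot be told apart in whole tissue.

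**Figure D1:**
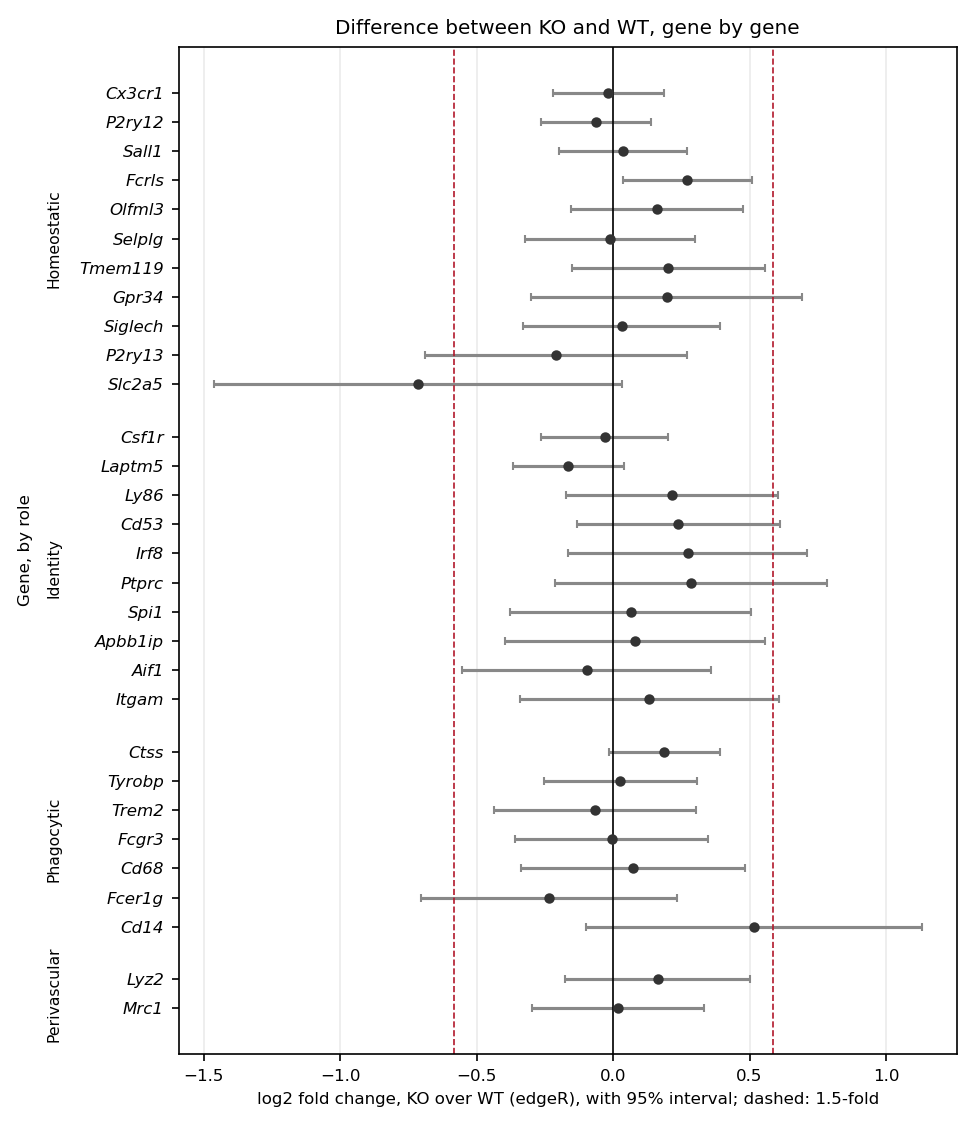
Log2 fold change of each member, KO over WT (x axis), with its 95% interval from edgeR, for the 30 genes grouped by role (y axis). Dashed lines mark 1.5-fold, and 20 of the 30 intervals lie between them, with those of Slc2a5 and Cd14 the widest.

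The KO and WT values did not overlap for 3 of 30 members, beside 23.7% of all genes tested. The 3 were Fcrls and Cd14, with KO above WT, and Laptm5, with KO below WT. Among the 9757 genes whose mean level lies in the range of the members (0.748 to 32.9 CPM), the groups did not overlap in 22.4% and the median absolute log2 fold change was 0.16, against 0.15 in the members.

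**Figure D2:**
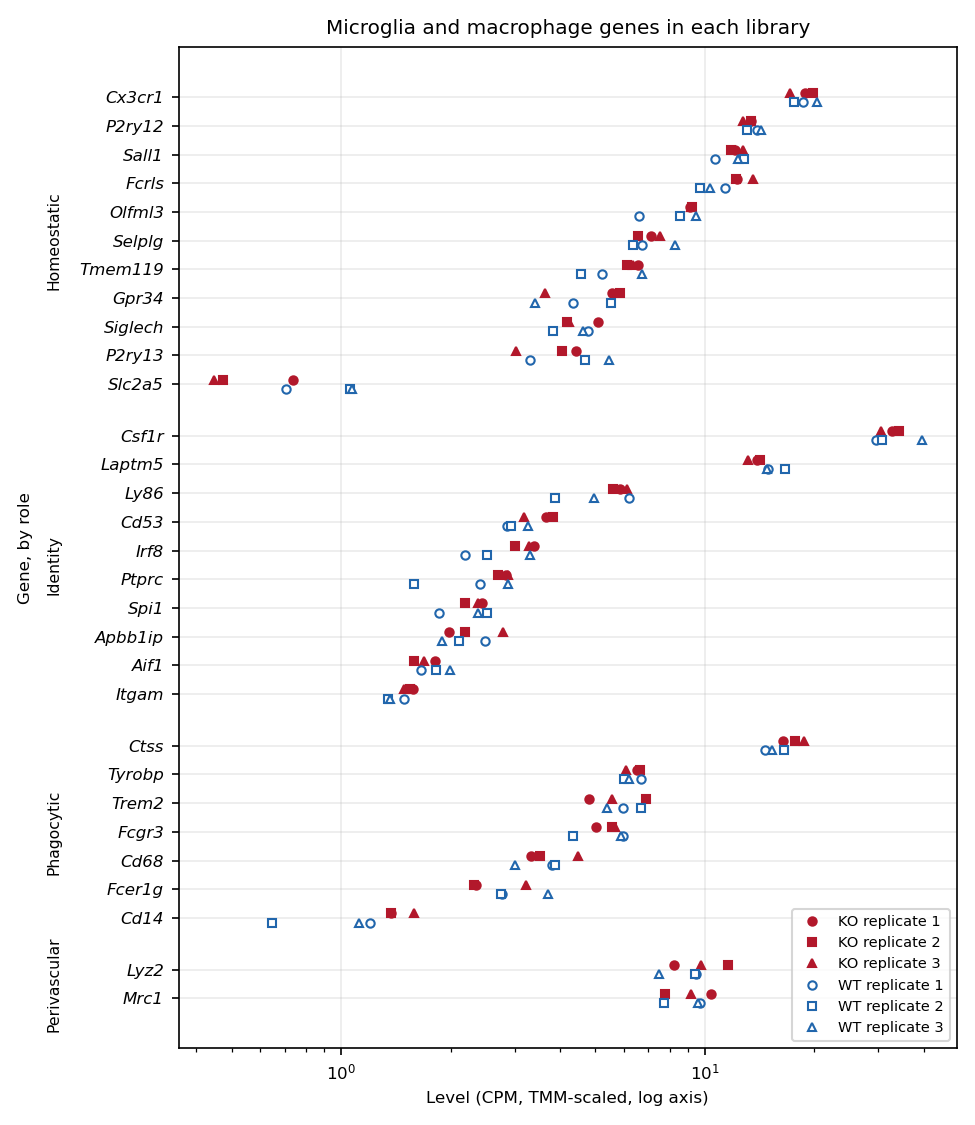
Level of each member in each library in CPM (x axis, log scale), by gene and role (y axis). Filled red symbols are KO and open blue symbols WT, and the symbols of the groups overlap for 27 of the 30 genes.

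Of the 11 homeostatic genes 6 had a positive and 5 a negative log2 fold change, with a median of 0.03, and 0 passed. Cx3cr1, the receptor of the neuronal chemokine fractalkine, was at 18.8, 19.9 and 17.1 CPM in KO and at 18.6, 17.6 and 20.3 CPM in WT. The groups covered the same range, and the log2 fold change was -0.02 (95% interval -0.22 to 0.19). P2ry12, the nucleotide receptor that steers microglial processes, was at 13.4, 13.4 and 12.7 CPM in KO and at 13.9, 13.02 and 14.3 CPM in WT, with a log2 fold change of -0.06 (SE 0.09, edgeR adjusted p = 0.749). P2ry12 and P2ry13, a nucleotide receptor next to it on chromosome 3, lie within Med12l on the opposite strand, but share only 9 bases of exon (P2ry12) and 0 (P2ry13) with it. The transcription factor gene Sall1, which helps to hold microglial identity, was at 12.1, 11.8 and 12.7 CPM in KO and at 10.6, 12.8 and 12.3 CPM in WT.

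Fcrls (chromosome 3, 87250758 to 87263738, minus strand), an Fc receptor-like gene known from microglia, was the member with the smallest p. It was at 12.3, 12.2 and 13.6 CPM in KO and at 11.4, 9.68 and 10.3 CPM in WT, so all KO libraries lay above the WT libraries. The difference was 1.21-fold (log2 fold change 0.27, SE 0.11, unadjusted p = 0.028) and did not pass after adjustment over all genes (edgeR adjusted p = 0.227, and 0.0735 to 0.534 over the alternatives). Tmem119, a membrane protein gene used to mark microglia, was at 6.57, 6.10 and 6.36 CPM in KO and at 5.22, 4.58 and 6.71 CPM in WT. Olfml3, a secreted matrix protein gene, was at 9.08, 9.20 and 9.14 CPM in KO and at 6.58, 8.57 and 9.48 CPM in WT. In both genes the KO libraries lay close together inside a wider WT range.

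Slc2a5, the fructose transporter gene, had the most negative value of the members and was the least abundant, with counts of 22, 11 and 9 in KO against 17, 18 and 22 in WT. Its levels were 0.737, 0.473 and 0.447 CPM against 0.704, 1.06 and 1.07 CPM, so the highest KO library lay above the lowest WT library. The log2 fold change was -0.72, with an interval from -1.46 to 0.03 (edgeR adjusted p = 0.304), and the depth leaves both a change near 0 and one past 2-fold possible. Selplg, the P-selectin ligand gene, the lectin gene Siglech, the lysophospholipid receptor gene Gpr34 and P2ry13 had log2 fold changes of -0.01, 0.03, 0.20 and -0.21, and their groups overlapped.

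Among the 10 genes of myeloid identity and the wider leukocyte lineage, 7 had a positive and 3 a negative log2 fold change, with a median of 0.11, and 0 passed. Csf1r, the receptor for the survival factors CSF1 and IL-34 and the most abundant member, was at 32.7, 34.2 and 30.5 CPM in KO and at 29.5, 30.7 and 39.5 CPM in WT. The WT animals thus lay on both sides of the KO range, and the log2 fold change was -0.03 (95% interval -0.27 to 0.20). In the annotation used here Csf1r shares 15.1% of its exon bases with Hmgxb3 on the opposite strand, a gene at 44.6 ± 1.04 CPM in KO and 44.4 ± 1.62 CPM in WT (SD, n = 3). The PU.1 gene Spi1 was at 2.45, 2.19 and 2.38 CPM in KO and at 1.86, 2.52 and 2.38 CPM in WT. Irf8, a transcription factor gene of the same lineage, was at 3.38, 3.01 and 3.28 CPM in KO and at 2.19, 2.52 and 3.31 CPM in WT.

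Laptm5 (chromosome 4, 130913125 to 130936141, plus strand), a lysosomal membrane protein gene of blood-derived cells, was the only member whose KO libraries all lay below the WT libraries. It was at 13.9, 14.2 and 13.2 CPM in KO and at 14.95, 16.6 and 14.8 CPM in WT, with a log2 fold change of -0.16 (SE 0.09, edgeR adjusted p = 0.378). Ptprc, which encodes the pan-leukocyte antigen CD45, was at 2.85, 2.71 and 2.88 CPM in KO and at 2.40, 1.58 and 2.87 CPM in WT. The tetraspanin gene Cd53, the Toll-like receptor cofactor gene Ly86 and the adaptor gene Apbb1ip had log2 fold changes of 0.24, 0.22 and 0.08. Aif1, which encodes the microglial stain IBA1, was at 1.70 ± 0.110 CPM in KO and 1.82 ± 0.168 CPM in WT (SD, n = 3). Itgam, which encodes the integrin chain CD11b, was at 1.54 ± 0.0435 against 1.40 ± 0.0786 CPM. Its level is uncertain, because 68.7% of its exon bases also belong to Gm49368 on the same strand in the annotation, and Gm49368 had 0 counts in all 6 libraries.

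Of the 7 phagocytic, lysosomal and receptor genes 4 had a positive and 3 a negative log2 fold change, with a median of 0.03, and 0 passed. Trem2, a lipid receptor gene of phagocytic microglia, was at 4.79, 6.88 and 5.56 CPM in KO and at 5.96, 6.69 and 5.40 CPM in WT. Tyrobp, which encodes the adaptor DAP12 that carries the TREM2 signal, was at 6.501, 6.62 and 6.06 CPM in KO and at 6.67, 5.98 and 6.17 CPM in WT, with a log2 fold change of 0.03 (95% interval -0.25 to 0.31). Receptor and adaptor thus covered the same range in both groups. Fcer1g, the adaptor gene of Fc receptors, was at 2.35, 2.32 and 3.23 CPM in KO and at 2.77, 2.76 and 3.69 CPM in WT. Fcgr3, an Fc receptor gene with close relatives, so that its counts are uncertain, had a log2 fold change of -0.01, and the lysosomal glycoprotein gene Cd68 one of 0.07.

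Ctss, the gene of the lysosomal protease cathepsin S, was at 16.4, 17.8 and 18.7 CPM in KO and at 14.7, 16.5 and 15.3 CPM in WT. The lowest KO library lay just under the highest WT library, so the groups overlapped, and the log2 fold change was 0.19 (SE 0.09, edgeR adjusted p = 0.320). Cd14, a receptor gene for bacterial lipopolysaccharide, had the largest positive value of the members, with counts of 41, 32 and 32 in KO against 29, 11 and 23 in WT. Its levels were 1.37, 1.38 and 1.59 CPM against 1.20, 0.645 and 1.12 CPM, so the groups did not overlap. The log2 fold change was 0.52 with an interval from -0.10 to 1.13 (edgeR adjusted p = 0.360), and it was 0.31 without WT replicate 2, the library with 11 counts.

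The 2 genes of perivascular macrophages and monocytes did not pass. Mrc1, the mannose receptor gene of perivascular macrophages, was at 10.4, 7.78 and 9.19 CPM in KO and at 9.69, 7.74 and 9.58 CPM in WT (log2 fold change 0.02, 95% interval -0.30 to 0.33). Lyz2, the lysozyme gene of macrophages, monocytes and neutrophils, was at 8.24, 11.6 and 9.73 CPM in KO and at 9.48, 9.39 and 7.49 CPM in WT (log2 fold change 0.16, 95% interval -0.18 to 0.50). Lyz2 has a near copy, Lyz1, so its counts are uncertain.

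Other genes of border macrophages, from a list of 12 of which 10 were tested, held 0 calls in edgeR, DESeq2 and limma-voom, with 1 at an unadjusted p under 0.05 in edgeR (lower) and a median log2 fold change of -0.04. That gene, Lyve1, a hyaluronan receptor gene of perivascular macrophages and lymphatic vessels named after its values were seen, was at 1.94, 1.76 and 1.49 CPM in KO and at 3.02, 2.699 and 2.38 CPM in WT. All KO libraries lay below the WT libraries (log2 fold change -0.63, SE 0.20, edgeR adjusted p = 0.151). The groups did not overlap for 2 of the 10 tested, both with KO below WT, beside 23.7% of all genes tested. The other was Cd209f, named after its values were seen (log2 fold change -0.71, edgeR adjusted p = 0.337). Of the 10, 5 had a positive and 5 a negative log2 fold change. The scavenger receptor genes Stab1 and Cd163 had log2 fold changes of 0.03 and -0.35, the clotting factor gene F13a1 one of 0.02 and the transcription factor gene Maf, which is not confined to macrophages, one of -0.09. Border macrophages also live in the choroid plexus, and markers of its epithelium differed between the groups and also among KO animals. Ttr, the most abundant, was at 4.26, 220 and 431 CPM in KO replicates 1, 2 and 3. In WT it was at 1096, 1861 and 1995 CPM (edgeR adjusted p = 0.154). Of 10 such markers 8 fell, beside 0.872% of all genes, and their summed level was 212 to 768 CPM in KO and 1603 to 2900 CPM in WT. Of those 8, all but Aqp1 failed the test without KO replicate 2 and without WT replicate 2. Their part in the values of Lyve1 and the other macrophage genes was not tested.

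Compared per length of exon, which allows levels of different genes to be set side by side, the order of the members ran from Ctss at 12.2 CPM per kilobase, Tyrobp at 9.50 and Lyz2 at 7.08, through Csf1r at 5.69, P2ry12 at 5.28, Fcrls at 4.96 and Cx3cr1 at 4.16, to Slc2a5 at 0.220 and Ptprc at 0.139 (means over 6 libraries). The lengths include every annotated exon, so genes with long rarely used exons come out low. Among the homeostatic receptor genes, Gpr34 at 2.26, P2ry13 at 1.64 and Siglech at 1.31 CPM per kilobase came lower in the order.

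Added up, the 30 members came to 224, 228 and 222 CPM in KO replicates 1, 2 and 3 and to 212, 212 and 230 CPM in WT replicates 1, 2 and 3. The KO mean was 3.09% above the WT mean (225 ± 3.08 against 218 ± 10.6 CPM, SD, n = 3), and the groups overlapped because WT replicate 3 lay above all KO libraries. Without the 3 most abundant members, Csf1r, Cx3cr1 and Ctss, the sums were 155.8 to 156.3 CPM in KO and 146.8 to 155.1 CPM in WT and did not overlap, a difference of 3.70% in the means. Homeostatic genes summed to 90.5 to 95.1 CPM in KO and 86.2 to 96.2 CPM in WT, and phagocytic genes to 39.7 to 45.3 CPM in KO and 40.5 to 41.04 CPM in WT. No score over chosen genes was tested.

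**Figure D3:**
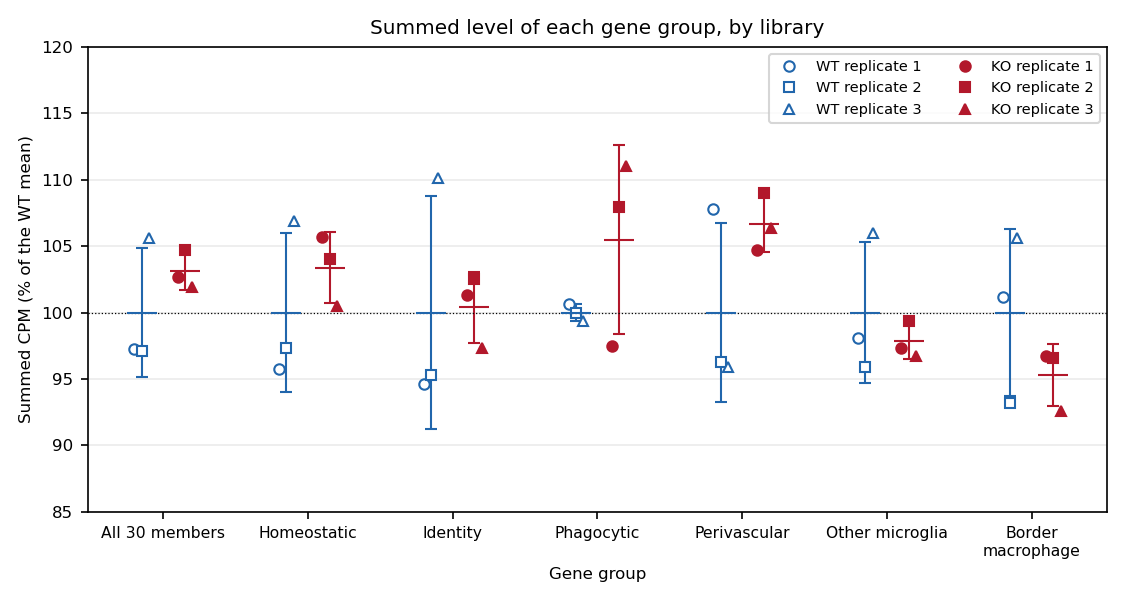
Summed CPM of each gene group in each library as a percentage of the WT mean (y axis, from 85%), with the group mean and SD beside the 3 libraries. KO and WT libraries overlap in all 7 groups shown, and WT replicate 3 is the highest WT library in 5 of them.

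The animals of a group differed by different amounts. The median SD of log2 CPM over the members was 0.09 in KO and 0.19 in WT, against 0.08 and 0.14 over all genes tested. The SD was larger in WT for 19 of 30 members, beside 13219 of the 18237 genes tested, so the wider WT spread was not particular to the members. WT replicate 3 was the highest of the 6 libraries for 10 members and WT replicate 2 the lowest for 11.

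Partner genes of the pathways around the members were read from lists of 65 genes, 58 of them tested. The groups did not overlap for 10 of the 58 (3 with KO above and 7 with KO below WT), beside 23.7% of all genes tested. In edgeR 0 of the 58 passed, with 7 at an unadjusted p under 0.05 (1 higher, 6 lower), beside 17.6% of all genes. The median log2 fold change of the 58 was -0.05. In DESeq2 2 passed (Cd9 and Sirpa, both lower) and in limma-voom 0. Without WT replicate 1 there were 6, of which Igf1 and Mertk were higher and Cd200, Cd9, Crybb1 and Rgs10 lower, and without WT replicate 3 there was 1 (Cd9). Of the CSF1R ligand genes, named for that role after their values were seen, Csf1 was at 16.8 ± 1.18 CPM in KO and 16.7 ± 2.56 CPM in WT, and Il34 at 6.36 ± 0.755 against 6.33 ± 1.58 CPM (SD, n = 3). Tgfb1, the gene of a factor that maintains the homeostatic state, likewise named, was at 8.23 ± 0.692 against 8.04 ± 0.776 CPM.

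Cx3cl1, the fractalkine gene, was at 36.5, 39.97 and 38.5 CPM in KO and at 36.7, 41.6 and 85.4 CPM in WT. WT replicate 3 alone stood apart, and without it the log2 fold change went from -0.51 (edgeR adjusted p = 0.325) to -0.03. Cx3cl1 passed in 1 of the alternatives, with no filter on low counts (edgeR adjusted p = 9.51e-10). Its receptor gene Cx3cr1 was highest in that same library, at 20.3 CPM. The neuronal inhibitory ligand genes Cd200 and Cd47 had log2 fold changes of -0.19 and -0.13, and Sirpa, the receptor gene for CD47, which neurons express too, one of -0.20. Cd200 was at 69.6 to 72.8 CPM in KO and 75.4 to 84.4 CPM in WT (edgeR adjusted p = 0.136), and Sirpa at 330 to 346 CPM in KO and 379 to 402 CPM in WT (edgeR adjusted p = 0.103). In both the groups did not overlap and KO lay below WT, as in 12.2% of all genes tested. Syk, the kinase gene that acts below TYROBP and FCER1G, named for that role after its values were seen, was at 3.65, 3.57 and 2.73 CPM in KO and at 2.07, 2.17 and 3.26 CPM in WT, and Inpp5d, the lipid phosphatase gene that opposes it, had a log2 fold change of 0.27.

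Of 27 other genes enriched in microglia, all tested, 0 passed in edgeR, with 2 at an unadjusted p under 0.05 (both lower), and their median log2 fold change was -0.05. The complement genes C1qa, C1qb and C1qc, named after their values were seen, were at 13.6 to 20.6 CPM in KO and 15.4 to 18.0 CPM in WT, with log2 fold changes of -0.07, 0.14 and 0.08. C1q marks synapses and debris for removal by microglia, and its 3 chain genes overlapped between the groups in each case. Rgs10, a regulator of G protein signalling shared with neurons, was at 16.99, 16.1 and 15.9 CPM in KO and at 18.6, 20.3 and 21.1 CPM in WT, all KO libraries being lower than the WT libraries (log2 fold change -0.29, edgeR adjusted p = 0.125). The crystallin gene Crybb1, known from developing microglia and named after its values were seen, was at 0.871, 0.688 and 0.497 CPM in KO and at 0.911, 1.29 and 2.67 CPM in WT. Its log2 fold change of -1.20 (edgeR adjusted p = 0.177) was -0.62 without WT replicate 3 and -1.51 without WT replicate 1, where it passed (edgeR adjusted p = 0.0277), as it did with no filter on low counts (edgeR adjusted p = 0.00735).

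Some genes of activated and white-matter microglia were close to the limit of detection, and some were not particular to microglia. Of 18 in the list 11 were tested, and 0 of these passed in edgeR and limma-voom and 1 (Cd9) in DESeq2, with 3 at an unadjusted p under 0.05 in edgeR. The 7 that were not tested were Itgax, Cst7, Ccl3, Ccl4, Il1b, Tnf and Ccl2, named because of their low counts, and none of them had more than 10 counts in any library. Il1b and Tnf, cytokine genes of inflammation, had 0 to 2 counts in each of the 6 libraries. The groups did not overlap for 4 of the 11 tested (1 with KO above and 3 with KO below WT), beside 23.7% of all genes tested. Clec7a and Lgals3, named after their values were seen, had log2 fold changes of 0.53 and -0.30 (edgeR adjusted p = 0.408 and 0.369). For Lgals3 all KO libraries lay below the WT libraries. Igf1, the growth factor gene that white-matter microglia and also neurons express, named after its values were seen, was at 17.3, 16.1 and 16.04 CPM in KO and at 13.4, 11.4 and 12.8 CPM in WT. The KO libraries all lay above the WT libraries, and the 1.31-fold difference did not pass (log2 fold change 0.39, SE 0.10, edgeR adjusted p = 0.0768, and 0.0191 to 0.278 over the alternatives, passing with no filter on low counts and without WT replicate 1). Cd9, a tetraspanin gene also abundant in oligodendrocytes and their precursors, was at 106, 96.3 and 94.6 CPM in KO and at 119, 124 and 113 CPM in WT (log2 fold change -0.26, edgeR adjusted p = 0.0708), and it passed in DESeq2, with no filter on low counts, and without WT replicate 1 or WT replicate 3. Spp1, the osteopontin gene, named after its values were seen, was at 8.34 to 9.37 CPM in KO and 9.97 to 14.1 CPM in WT (edgeR adjusted p = 0.200), and Apoe at 1193 ± 8.40 against 1284 ± 162 CPM (SD, n = 3).

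**Figure D4:**
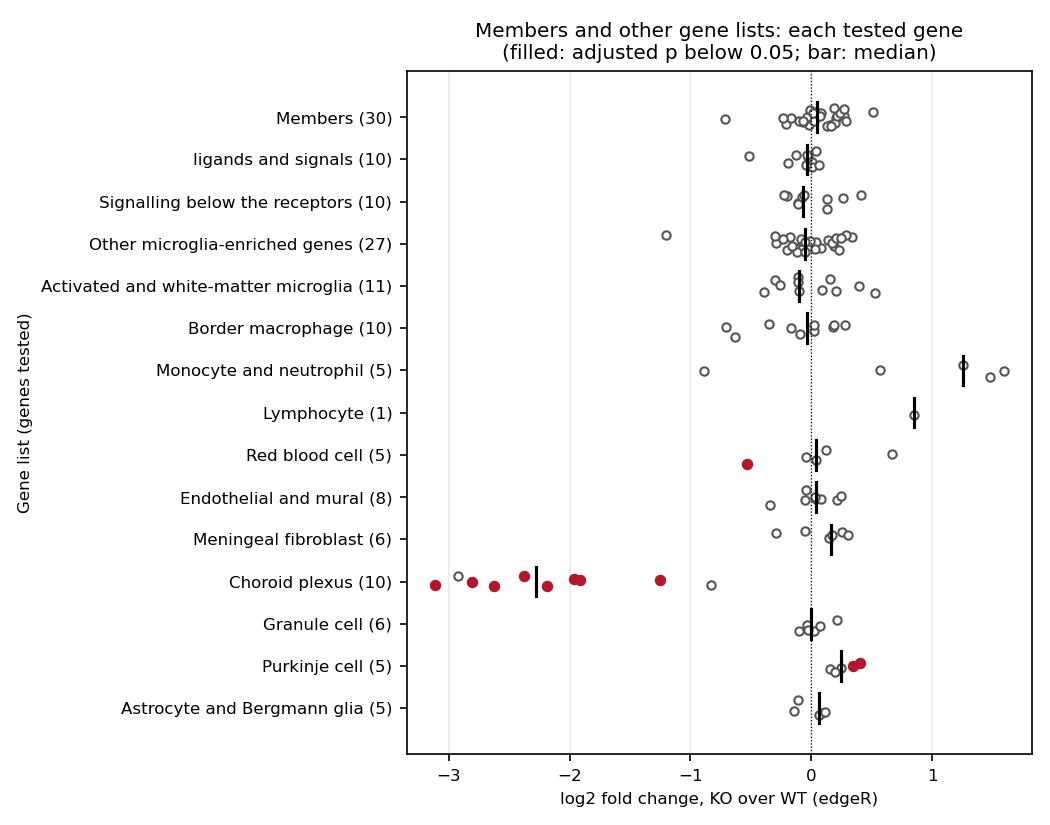
Log2 fold change of each tested gene, KO over WT (x axis), for the members and 14 other lists (y axis, with the number of genes tested), with a bar at each median and filled symbols for adjusted p below 0.05. The 30 members and 4 partner lists hold no filled symbol, whereas 8 of 10 choroid plexus markers are filled and lie below 0, and 2 of 5 Purkinje cell markers are filled and lie above 0.

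Markers of blood leukocytes were measured because several members are shared with them. The neutrophil genes S100a8 and S100a9 were at 0.871, 2.02 and 2.43 CPM and at 1.34, 2.88 and 3.67 CPM in KO and at 0.373, 0.411 and 1.07 CPM and at 0.621, 0.293 and 1.60 CPM in WT. They did not pass in edgeR (adjusted p = 0.152 and 0.145), and S100a9 passed in DESeq2 and without WT replicate 3, where its log2 fold change went from 1.59 to 2.41. Both passed with no filter on low counts. Of the 8 monocyte and neutrophil genes in the list 5 were tested and 0 passed in edgeR, with 4 positive and 1 negative log2 fold change. Next by level came Ngp at 0.57 (edgeR adjusted p = 0.675), highest in WT replicate 3 at 1.94 CPM. Ly6c2 went the other way at -0.89 (edgeR adjusted p = 0.474). The summed level of the 8 genes was 3.95 to 10.7 CPM in KO and 1.88 to 6.42 CPM in WT. That of 8 lymphocyte genes was 1.68 to 2.06 CPM in KO and 0.880 to 0.972 CPM in WT, and the T cell gene Cd3g, named for its low counts, had 0 to 2 counts in each library. Lyz2, which neutrophils and monocytes express, was highest in KO replicates 2 and 3, the libraries with the most S100a8 and S100a9. It was lowest, at 7.49 CPM, in WT replicate 3, the library next in S100a8 and S100a9. The part of neutrophils and monocytes in the level of Lyz2 was not tested. Haemoglobin genes, a sign of blood in the tissue, summed with Alas2 to 199 to 221 CPM in KO and 209 to 238.5 CPM in WT, and 1 of these 5 genes, Hba-a1, fell (log2 fold change -0.53, edgeR adjusted p = 0.00435). Its near copy Hba-a2 went the other way without passing (log2 fold change 0.67, edgeR adjusted p = 0.252), so the counts of both are uncertain, and Hbb-bs and Hbb-bt, the beta-globin genes, had values of 0.04 and 0.12. Endothelial and mural markers, 0 of 8 of which passed in edgeR with 1 (lower) at an unadjusted p under 0.05, summed to 388 to 390 CPM in KO and 367 to 453 CPM in WT. Of 5 Purkinje cell markers 2 rose, beside 0.784% of all genes, and their summed level was 4423 to 4631 CPM in KO and 3578 to 3942 CPM in WT. They were Pcp2, a regulator of G protein signalling, and Car8, a carbonic anhydrase-related gene (log2 fold changes 0.35 and 0.40, edgeR adjusted p = 0.0261 and 0.0371). Neither passed when any 1 KO library was left out, and Car8 did not pass without WT replicate 2. Pcp2 shares 51.5% of its exon bases with Pet100 on the opposite strand. The part of these markers in the values of the microglia and macrophage genes was not tested.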

How the data were processed

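Each cerebellum gave 1 library, made with Illumina TruSeq RNA kits and sequenced as paired reads, per the labels' protocols. The deposited files hold whole-number read counts for each gene, made with STAR 2.7.5a and build mm10/GRCm38, both per the submitters' processing notes, and Ensembl release 102, per the file names. STAR's own gene counting made these counts, and settings beyond that were not given in the sources used here. The column counted without strand was used, since the strand columns split the counts evenly (49.9% to 50.0% in the first). The 4 lines for reads not counted for any gene were left out. They hold reads that were unmapped, mapped to several places, fell in no annotated gene or were ambiguous between genes. The ambiguous reads made up 3.95% to 4.44% of all reads. Unmapped reads made up 13.8% to 17.2% of all reads in KO and 6.52% to 10.03% in WT.

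Symbols, positions and exon lengths came from GENCODE release M21 (GRCm38), which matched 55227 of 55487 gene identifiers (99.5%). Groups came from the strain label. The labels give no replicate number, litter or batch, so no paired analysis was possible because nothing pairs the animals. No 2 libraries of a group were identical, and their counts differed beyond counting noise (chi-square per degree of freedom 2.65 to 19.0).

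KO and WT were set against each other in edgeR 4.0.16 under R 4.3.3 (TMM scaling, minimum count 10 and minimum total 15, two-sided quasi-likelihood F test, with a Benjamini-Hochberg adjusted p below 0.05 taken as passing, over 18237 genes). SEs were derived from the fold change and the F statistic, and 95% intervals used 10.4 degrees of freedom. They rest on the spread among animals, moderated by that of other genes, which gave 6.36 of these degrees of freedom. PCR copies were not marked. DESeq2 1.42.0, limma-voom (limma 3.58.1), RLE size factors, no filter, a GC-dependent offset and leaving out each library were the alternatives. Tested on counts simulated for KO against WT (17972 genes), the fit found 66% of true 1.5-fold changes, 82% of 2-fold ones and 100% of 4-fold and 8-fold ones, with 3 false calls. The simulated spread followed the level of a gene alone and left out other differences between genes or libraries. The members' median level was 5.41 CPM, against 17.9 CPM over all genes tested, so these shares may be too high for the members. The members and lists were chosen with earlier results of these data known. The rule for named genes took the targeted gene, all members, the genes of other lists that passed and up to 4 of each list by level, and other genes are said to be named after their values were seen. One gene of the other microglia list is not reported here by name.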

Additional observations from a re-analysis of the deposited data

How the results depend on the processing

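No member passed under any of the 11 alternatives, and the members' median log2 fold change was 0.04 to 0.08 in them. The count over all genes was 302 and became 1623 with no filter on low counts (803 higher, 820 lower) and 562 in DESeq2 (290 higher, 272 lower). Leaving out 1 library gave 81 to 1921 (28 to 959 higher, 53 to 962 lower). Partner genes that passed went from 0 to 4 with no filter and 2 in DESeq2, and ranged from 0 to 6 when 1 library was left out. Genes of the other cell type lists that passed went from 11 to 22 with no filter, and from 3 to 18 without 1 library. The cause was not tested.

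In 25 of 330 refits the log2 fold change of a member changed sign, in 12 members whose value was at most 0.08 in size. With the GC offset, Cx3cr1 was 0.0079, Selplg was 0.016, Fcgr3 was 0.023, Il34 was -0.00019. With 1 library left out, the ranges of the members were Cx3cr1 -0.067 to 0.042, Sall1 -0.043 to 0.092, Siglech -0.073 to 0.093, Selplg -0.079 to 0.11, Csf1r -0.12 to 0.11, Spi1 -0.064 to 0.15, Apbb1ip -0.062 to 0.20, Trem2 -0.22 to 0.053, Tyrobp -0.0024 to 0.073, Cd68 -0.060 to 0.16, Fcgr3 -0.13 to 0.068, Mrc1 -0.092 to 0.12. Among the other genes named they were Csf1 -0.083 to 0.14, Il34 -0.15 to 0.20, Tgfb1 -0.033 to 0.11, Mef2c -0.15 to 0.027, C1qa -0.12 to 0.020, Maf -0.16 to 0.0052, Stab1 -0.015 to 0.065, F13a1 -0.11 to 0.15.

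Depth limits the least abundant members most: Slc2a5 had 9 to 22 counts in a library and Cd14 11 to 41. With 3 animals in each group, the median SE of a member's log2 fold change was 0.16. No paired analysis was possible because nothing in the labels pairs the animals.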
